A study of Homo sapiens with 23 samples.

Results

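Acetylation of histone H4 at lysine 16 (H4K16ac) was mapped by ChIP-seq in HCT116, a human colon carcinoma cell line, and 99771 of its 230760 peaks on chromosomes 1 to 22 and X (43.2%) shared no base pair with a peak of SIRT1 phosphorylated at T530 (pSIRT1) or of MCM2 phosphorylated at S139 (pMCM2). These 99771 regions, chosen by their lack of listed pSIRT1 and pMCM2 peaks, are the subject here. They are called unbound peaks, which means only that neither ChIP list has a peak there, and the other 130989 are called bound peaks. Of the bound peaks, 54584 met both marks, 44323 met pSIRT1 alone and 32082 met pMCM2 alone.

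H4K16ac opens chromatin by loosening contacts between neighbouring nucleosomes. It is written mainly by the acetyltransferase KAT8 (MOF) and removed by sirtuins, among them the NAD-dependent deacetylase SIRT1. MCM2 is a subunit of the MCM complex, which is loaded on chromatin before S phase and later unwinds DNA at replication start sites, and only part of the loaded complexes fire in a given cell cycle.

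The 3 ChIP lists came from unsynchronised wild-type HCT116 cells. Start sites were mapped in HCT116 as nascent strands, short DNA protected from exonuclease by the RNA at its end. They were mapped in a SIRT1-depleted clone, in that depleted background with T530A mutant SIRT1 put back (T530A rescue), in wild-type cells given 200 nM aphidicolin, an inhibitor of replicative DNA polymerases, for 24 h and then grown for 24 h without it, and in the depleted background with wild-type SIRT1 put back (wild-type rescue). The labels call the depleted and the rescued lines clones, so each stands for 1 clone. No HCT116 start-site list from untreated wild-type cells is among the samples. A further 14 lists came from K562, a chronic myelogenous leukemia line.

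Each group had 1 library, so no difference has a replicate check and no test was run. Intervals in parentheses are 95% intervals, by Wilson's method for shares and by the normal approximation for paired shares for differences. They cover counting error only, and neighbouring peaks are not independent. The 4 HCT116 start-site lists held 109990 peaks (depleted), 103974 (T530A rescue), 96993 (aphidicolin) and 74479 (wild-type rescue). Their median widths were 2400, 2400, 2400 and 3800 bp, and the lowest read count in a listed region was 25, 24, 25 and 31. The pSIRT1 and pMCM2 lists had no region with fewer than 16 reads. A weaker signal at an unbound peak was therefore not listed, and library depth is unknown. The depletion itself cannot be checked in peak lists.

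The unbound peaks were narrow and weak by the authors' values. Their median width was 516 bp, with quartiles of 282 and 947 bp and a widest peak of 17724 bp, and together they covered 72.8 Mb. The bound peaks had a median of 1225 bp, with quartiles of 545 and 2687 bp, and covered 310.3 Mb. The median fold enrichment in the deposited list was 2.98 for unbound and 3.73 for bound peaks. The peak score, which follows the −log10 q value in this list (median ratio 9.88), had a median of 27 for unbound and 47 for bound peaks, above a lowest score of 14 in both. A score under 20 was given to 22.8% of unbound and 7.22% of bound peaks, and a score of 100 or more to 1.24% of unbound (1241 peaks) and 17.4% of bound peaks. These contrasts describe the selection and were not tested, because a wide peak has more room to meet another peak. The unbound share was 67.3% of the H4K16ac peaks of 200 to under 300 bp and 1.87% of those of 4000 bp and over. At equal widths the scores still differed, with medians of 24 for unbound and 37 for bound peaks of 400 to under 600 bp.

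**Figure D1:**
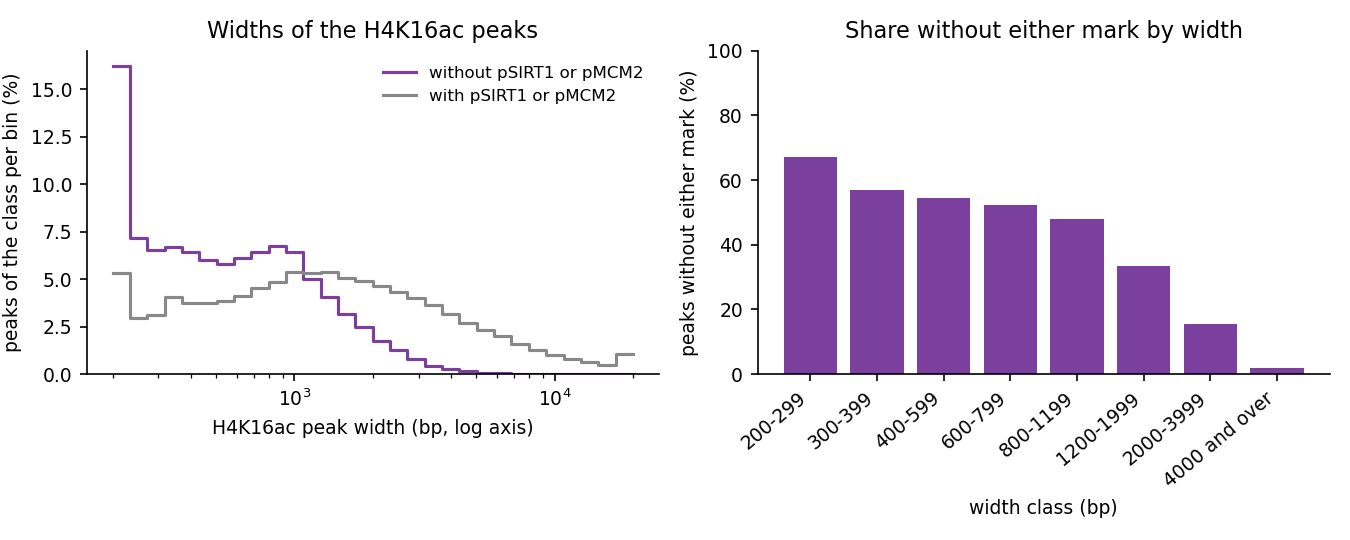
The left panel gives the share of unbound and of bound H4K16ac peaks (%) in each width bin (bp, log axis, the last bin holding all wider peaks), and the right panel the unbound share of all H4K16ac peaks (%) in each width class. Unbound peaks lie at the narrow end, and their share falls to 1.87% at 4000 bp and over.

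The gap from unbound peaks to the marks is described without a comparison value. The median gap to the nearest pSIRT1 or pMCM2 peak was 3970 bp, with quartiles of 1679 and 9607 bp and a largest gap of 276670 bp. The median gap was 7815 bp to pSIRT1 and 6406 bp to pMCM2. The 1080 unbound peaks less than 200 bp outside a mark had a median score of 25 and overlapped the depleted list at 34.9% and the wild-type rescue list at 30.9%. The 7304 bound peaks that shared only 1 to 200 bp with a mark had a median score of 27 and overlapped these lists at 35.2 and 28.9%. These sets were thus close in score and in these shares, though their widths differed (median 500 bp for the unbound and 255 bp for the bound ones). The bound set holds all 2697 bound peaks of exactly 200 bp, which cannot share more even when wholly inside a mark. It is therefore not a set of peaks at the edge of a mark alone.

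Neighbouring H4K16ac peaks were described by class, with no comparison value. For 75.9% of unbound peaks, at least 1 of the neighbouring H4K16ac peaks was also unbound, and 29.5% lay in runs of 5 or more unbound peaks without a bound one between them. The longest run held 32 unbound peaks over 235.2 kb at chr4:79377534-79612765 (hg19), of which 9 overlapped the depleted list, 10 the T530A list, 7 the aphidicolin list and 11 the wild-type rescue list. A run of 24 over 99.7 kb at chr11:47635870-47735578 had no unbound peak that overlapped any of the 4 lists.

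Across chromosomes, the unbound share of H4K16ac peaks ran from 30.3% on chromosome 19 to 54.8% on chromosome 3. It was also low on chromosomes 16 (33.4%), 22 (33.9%) and 21 (35.0%), and high on chromosomes 4 (53.9%), 13 (50.9%) and X (50.3%). Their density ran from 13.2 per Mb on chromosome X to 48.5 per Mb on chromosome 17. Median scores were between 26 and 28 on each of the 23 chromosomes, and median widths between 427 bp on X and 654 bp on 19, so differences in number were not matched by differences in score.

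About 1 in 5 unbound peaks lay at a start site of any single HCT116 list, nearly the same in all 4 as deposited. At least 1 list was met by 44.3%. With the lists cut to equal length by read count, the shares were 14.2% (depleted), 15.4% (T530A), 17.0% (aphidicolin) and 19.6% (wild-type rescue). As deposited, the depleted list was met by 20165 unbound peaks, 20.2% (19.96 to 20.5%), beside 43.6% of all H4K16ac peaks. The T530A list was met by 20.1% (19.85 to 20.3%), beside 37.2% of all, and the aphidicolin list by 20.6% (20.3 to 20.8%), beside 35.1%. The wild-type rescue list was met by 19526 unbound peaks, 19.6% (19.3 to 19.8%), beside 34.5% of all. Bound peaks met the depleted list at 61.5%, the T530A list at 50.3%, the aphidicolin list at 46.2% and the wild-type rescue list at 45.9%.

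Weighted to the widths of the unbound peaks, the bound peaks met the same lists at 50.3, 40.8, 37.6 and 37.2%, still above the unbound shares. Weighted to width and score together, an alternative chosen after seeing the data, they met them at 45.6, 38.1, 35.8 and 35.7%. The classes were made on pSIRT1 and pMCM2, so these differences between them are a description. What accounts for them was not tested.

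**Figure D2:**
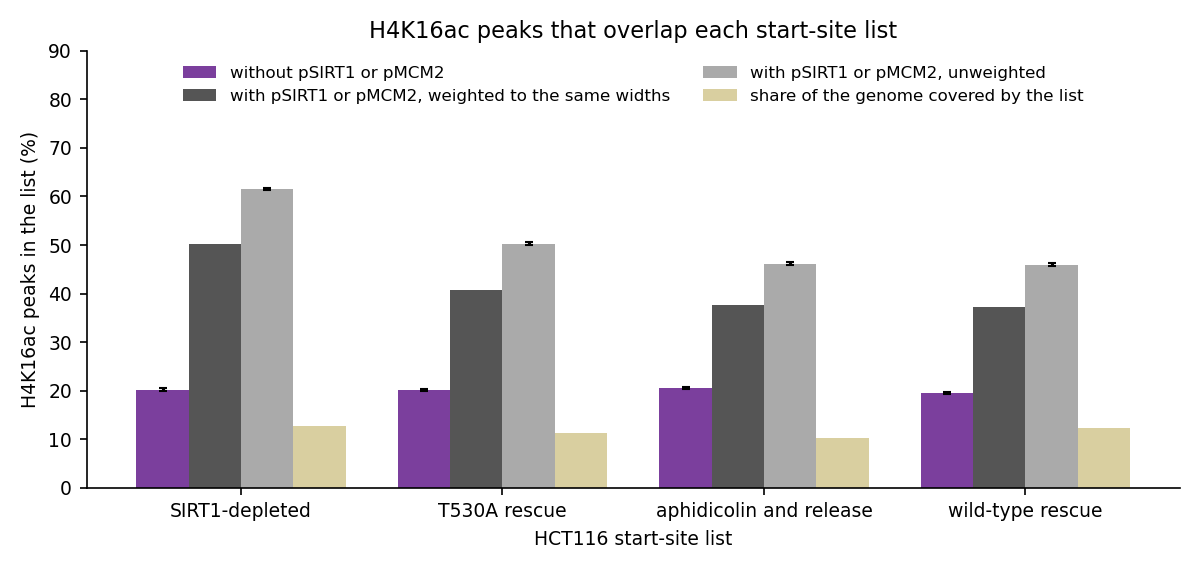
Bars give the share (%) of unbound H4K16ac peaks, of bound peaks weighted to the same widths and of bound peaks unweighted that overlap each HCT116 start-site list, and the share of the genome that the list covers; error bars on the unweighted peak shares are 95% Wilson intervals. Unbound peaks sit between 19.6 and 20.6% in the 4 lists as deposited, while bound peaks are highest in the depleted list.

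The start sites covered 12.7% (depleted), 11.3% (T530A), 10.35% (aphidicolin) and 12.25% (wild-type rescue) of the chromosome lengths, taken as the last listed position on each chromosome. The middle base of unbound peaks lay inside a start site in 18.6, 18.2, 18.6 and 18.4% of cases, which is 1.469, 1.614, 1.793 and 1.502 times the covered share. The regional part of this excess was not tested. At 50 kb on either side of unbound peaks, 16.17, 14.78, 14.04 and 15.96% of positions were inside a start site. The middle exceeded these values at 50 kb by factors of 1.15, 1.23, 1.32 and 1.15. Between the middle and 50 kb there was a dip, to 11.6% in the depleted list, 11.7% in the T530A list, 12.3% in the aphidicolin list and 14.4% in the wild-type rescue list at 1.5 kb. For bound peaks the middle lay inside a depleted-list site in 55.8% of cases, against 25.9% at 50 kb, and inside a wild-type rescue site in 41.4%, against 23.5%. No dip was seen there, since the values at 1.5 kb were 34.9 and 32.0%. The lower quartile of the gap from unbound peaks to a mark was 1679 bp, so most of their flanks at 1.5 kb held no mark. The part of this selection in the dip was not tested.

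**Figure D3:**
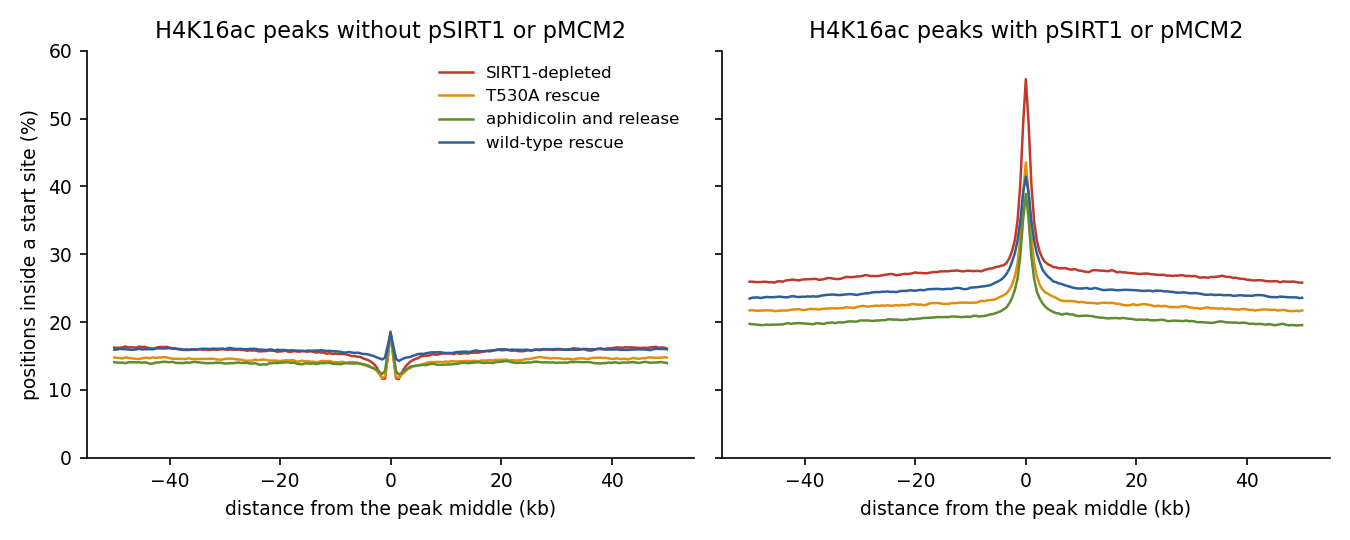
Each line gives, for 1 start-site list, the share of positions inside a start site (%) at each distance (kb) from the middle of unbound (left) and bound (right) H4K16ac peaks. Unbound peaks show a narrow maximum of 18.2 to 18.6% flanked by a dip, and bound peaks a maximum of 38.9 to 55.8% without one. The classes were chosen by the marks, and the part of that choice in the dip was not tested.

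The comparison of SIRT1-depleted with wild-type rescue cells sets 1 depleted clone beside 1 rescued clone. SIRT1 state and clone cannot be told apart in it. Among unbound peaks, 11778 (11.8%, 11.6 to 12.0%) met the depleted and not the wild-type rescue list, beside 19.2% of all H4K16ac peaks. In the other direction, 11139 (11.2%, 10.97 to 11.4%) met the wild-type rescue and not the depleted list, beside 10.1% of all. Both lists were met by 8387 (8.41%), beside 24.5% of all, and neither by 68467 (68.6%), beside 46.3%. The counts of the 2 one-sided classes stood in a ratio of 1.06 for unbound peaks and 2.68 for bound peaks. As a difference of shares, depleted minus wild-type rescue was 0.64 percentage points (0.34 to 0.94) for unbound peaks and 15.6 points for bound peaks. Weighted to the widths of the unbound peaks, the bound difference was 13.1 points. By mark, at the same widths, it was 6.03 points for peaks with pMCM2 alone, 15.1 for pSIRT1 alone and 19.0 for both. The median scores of these classes were 33, 43 and 67, in the same order, and the part of score was not tested.

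The small unbound difference changed sign when the lists were shortened by read count. With each list cut to its 74479 highest-count sites, the shares were 14.2% for the depleted and 19.6% for the wild-type rescue list, a difference of -5.41 points. That number is the whole wild-type rescue list, so of these 2 only the depleted list lost sites. The full depleted and wild-type rescue lists covered 384.2 and 372.0 Mb, so equal numbers do not mean equal coverage. With the higher-count 50% of each list it was -1.83 points. The bound difference at equal lengths and widths was 0.027 points. The unbound difference less the bound one at equal widths was -12.4 points, and between -14.9 and -5.44 points in the 13 alternatives run for it, with the classes made as described above.

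The other lists, which share the wild-type rescue as their reference, gave differences of 0.52 points (T530A) and 0.98 points (aphidicolin) over unbound peaks. At equal list lengths these were -4.18 and -2.60 points. The aphidicolin list came from wild-type cells and its reference from the rescued clone, so treatment and cell line cannot be told apart. Unbound peaks that met the T530A and not the wild-type rescue list numbered 10288 (10.3%), beside 13.2% of all H4K16ac peaks, and the reverse class 9765 (9.79%), beside 10.5%. For aphidicolin these classes held 11015 (11.04%), beside 12.6%, and 10038 (10.1%), beside 12.1%. Both the depleted and the T530A list, but not the wild-type rescue list, were met by 3125 (3.13%), beside 6.93%.

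All 4 lists were met by 3382 unbound peaks (3.39%), beside 15.1% of all H4K16ac peaks, and none by 55585 (55.7%), beside 35.7%. Those in all 4 lists had a median width of 713 bp and a median score of 32, and those in none 471 bp and 26. Exactly 3 lists were met by 6992 (7.01%), beside 13.0% of all, and exactly 2 by 11927 (11.95%), beside 15.0%. A single list was met by 21885 unbound peaks (21.9%), beside 21.3% of all. The depleted list alone was met by 7000 (7.02%, beside 9.62% of all) and the T530A list alone by 4857 (4.87%, beside 4.05%). The aphidicolin list alone was met by 5719 (5.73%, beside 4.35%) and the wild-type rescue list alone by 4309 (4.32%, beside 3.27%). For the depleted list alone the unbound share lay below that of all H4K16ac peaks, and for the others above it.

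The unbound peaks were not uniform, and the higher-scoring ones differed between lists. Among those with scores of 14 to under 20, 15.4% met the depleted, 16.7% the T530A, 17.6% the aphidicolin and 17.3% the wild-type rescue list. The depleted share was 24.97% at scores of 40 to under 60, 32.4% at 60 to under 100 and 42.2% in the 1241 peaks at 100 and over. The wild-type rescue share was 21.9, 23.1 and 21.8% in these classes. At 100 and over the T530A share was 28.9% and the aphidicolin share 24.5%. Depleted minus wild-type rescue thus ran from -1.85 points in the lowest class to 20.4 points (17.4 to 23.4) in the highest. Bound peaks ran the same way, from 6.58 to 26.6 points. In the highest class the unbound difference was 21.5 points for the 535 peaks at least 5 kb from both marks, 20.1 points for widths of 400 to under 1200 bp, 20.9 points without chromosomes 5, 21 and X and 5.96 points (3.10 to 8.83) at equal list lengths. In the lower score classes the equal-length difference was below 0, between -6.04 and -2.61 points.

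Shares in all 4 lists were lower far from the marks than near them. Within 200 bp of a mark, 34.9% of unbound peaks met the depleted, 30.6% the T530A, 30.6% the aphidicolin and 30.9% the wild-type rescue list. At 20 kb and over, in 10226 peaks, the shares were 14.9, 15.8, 16.4 and 12.3%. Median scores were 25 and 26 at these distances. Median widths were 500 bp within 200 bp of a mark, 592 bp at 200 to under 1000 bp and 434 bp at 20 kb and over. Width thus rose before it fell, and its part in the lower shares was not tested. By width, the depleted share was 15.8% at 200 to under 300 bp and 43.8% in the 384 unbound peaks of 4000 bp and over, against 16.3 and 32.0% in the wild-type rescue list.

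**Figure D4:**
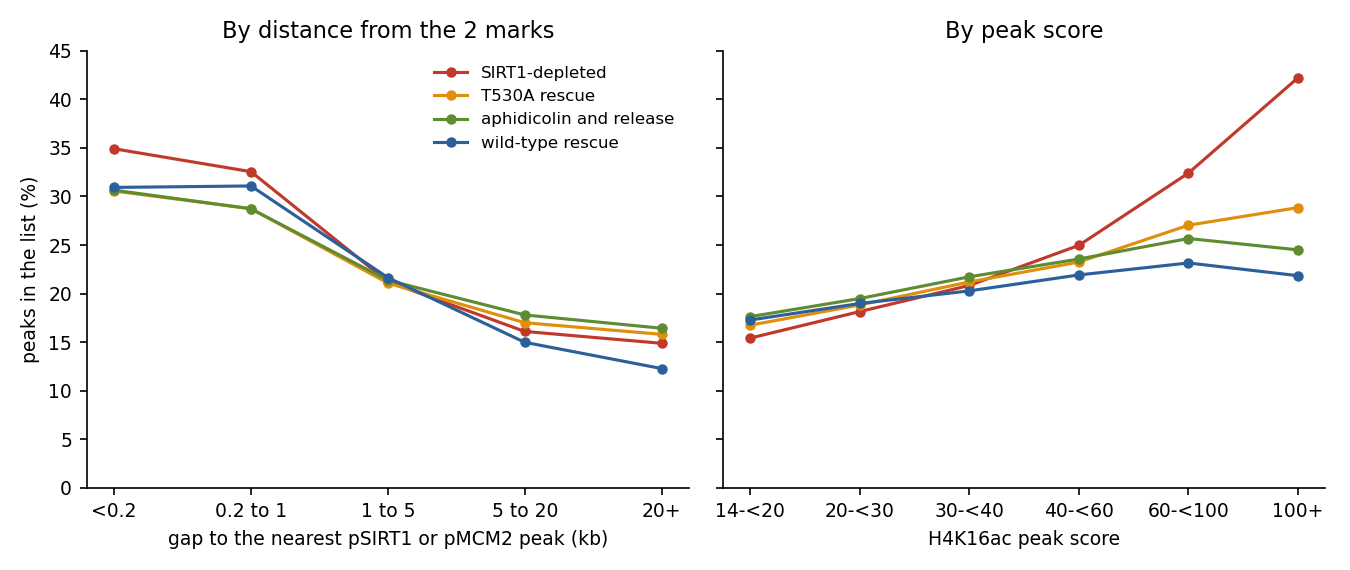
Points give the share (%) of unbound H4K16ac peaks in each HCT116 start-site list, by the gap (kb) to the nearest pSIRT1 or pMCM2 peak (left) and by H4K16ac peak score (right). All lists are lower at 20 kb and over than within 1 kb, while the depleted list rises to 42.2% at high scores and the wild-type rescue list stays between 17.3 and 23.1%.

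Chromosomes differed in the start-site shares of unbound peaks. The depleted share was higher than the wild-type rescue share on 16 of 23 chromosomes, and the bound peaks showed this on 22 of 23. On chromosome 21 the unbound shares were 31.5% in the depleted list, 62.3% in the T530A list, 19.1% in the aphidicolin list and 63.4% in the wild-type rescue list, so the difference from the wild-type rescue was -31.9 points for depleted cells. Over a segment chosen after seeing the data, the first 50 Mb of chromosome 5, they were 40.1, 80.0, 21.5 and 80.8%, and on the rest of it 20.9, 19.68, 20.16 and 20.01%. Both rescue lists were dense in these segments, with 103.7 (T530A) and 78.5 (wild-type rescue) sites per Mb in that segment, and 34.7 and 24.7 over the chromosomes other than 5, 21 and X. The depleted list had 41.7 sites per Mb in the segment and 38.1 over those chromosomes. On chromosome X the shares were 11.2% in the depleted list, 2.68% in the T530A list, 1.65% in the aphidicolin list and 1.31% in the wild-type rescue list, where these lists held 7.23, 2.27, 1.48 and 1.02 sites per Mb. Bound peaks moved the same way. Their depleted minus wild-type rescue difference was -13.7 points on chromosome 21, -16.4 points on the chromosome 5 segment and 29.7 points on X. Copy number of these segments in each clone and start-site use cannot be told apart here. On chromosome 17 the depleted share (12.6%) lay below the others (17.1 to 18.9%), at 52.2 depleted-list and 32.6 wild-type rescue sites per Mb. Without chromosomes 5, 21 and X the unbound difference was 1.201 points (0.89 to 1.51).

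**Figure D5:**
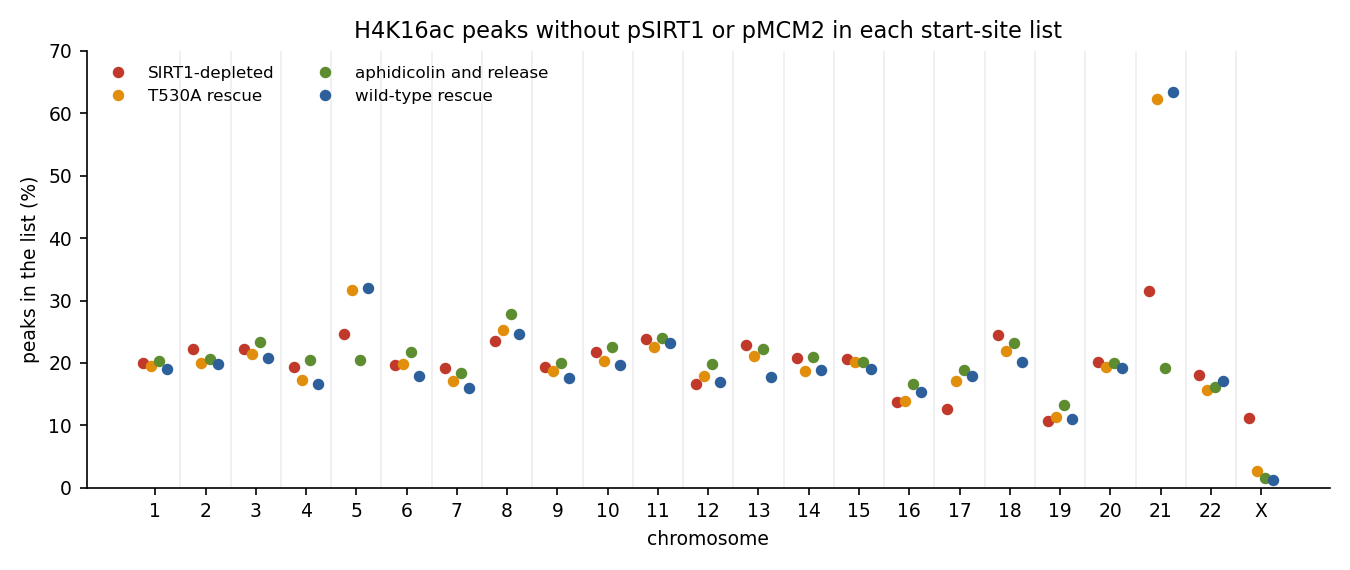
Points give the share (%) of unbound H4K16ac peaks on each chromosome that overlap the SIRT1-depleted, T530A rescue, aphidicolin and wild-type rescue lists. Both rescue lists stand above the others on chromosomes 5 and 21, reaching 63.4% on 21, and the depleted list stands above the others on X.

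Seen from the start sites, 12742 sites of the depleted list (11.6%) held an unbound peak and no bound one, as did 12981 of the T530A list (12.5%), 13208 of the aphidicolin list (13.6%) and 9300 of the wild-type rescue list (12.5%). In the depleted list such sites measured 2000 bp at the median with 41.5 reads per kb, and sites without any H4K16ac peak measured 1800 bp with 40.8 reads per kb. Sites that held bound peaks alone measured 2800 bp with 49.2 reads per kb. In the wild-type rescue list the reads per kb were 37.2 for sites with unbound peaks alone, 36.8 without H4K16ac and 40.9 with bound peaks alone. Depth was not scaled between the lists.

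In K562 cells the same coordinates were less often bound as well. A pSIRT1 peak of at least 1 of the 6 K562 lists met 32.1% of unbound and 73.6% of bound peaks (55.6% of all H4K16ac peaks), and 61.2% of bound peaks at the widths of the unbound ones. A pMCM2 peak of at least 1 of the 5 lists met 20.4% of unbound and 55.5% of bound peaks (40.3% of all), and 48.7% of bound peaks at the widths of the unbound ones. Any K562 ChIP list met 42309 unbound peaks (42.4%), beside 65.2% of all. For pSIRT1, unbound peaks were met at 9.21% for G1 cells (beside 24.8% of all H4K16ac peaks), 1.85% for early S (8.55%), 1.72% for middle S (10.3%), 16.6% for late S (41.2%), 3.21% for G2 (11.7%) and 13.7% for unfractionated cells (29.1%). For pMCM2 the shares were 2.34% for G1 cells (8.38%), 4.22% for early S (12.8%), 4.64% for middle S (13.4%), 4.42% for late S (13.0%) and 11.6% for G2 (25.8%). Late S pSIRT1 and G2 pMCM2 were the highest of each, and these were also the longest K562 list of each protein. K562 start sites of early, middle and late S met 13.8, 14.9 and 13.5% of unbound peaks, beside 17.9, 20.8 and 18.4% of all, and at least 1 of them met 25.1%, beside 31.6%. At least 1 HCT116 start-site list met 44186 unbound peaks (44.3%), beside 64.3% of all, and lists of both lines met 16.6%, beside 25.7%. Unbound peaks at a start site of HCT116 cells met a K562 start site at 37.5%, and those at none at 15.3%. For bound peaks these shares were 41.1 and 18.5%. No start-site list of either line and no K562 ChIP list met 31596 unbound peaks (31.7%), beside 17.0% of all, and 5.86% of bound peaks. Peak numbers differ between the lists, so these shares are given side by side only.

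The highest-scoring unbound peaks are given with their hg19 positions. No annotation or sequence of that build was used, so they carry no gene names. The first, chr9:66970868-66973817, had a score of 3468 and a fold enrichment of 53.1, lay 2667 bp from the nearest mark and met none of the 4 HCT116 start-site lists but 7 of 14 K562 lists. The second, chr11:125842278-125843587, scored 3138 and met a T530A-list site of 53 reads and no other HCT116 list. The third, chr10:98561203-98561691, scored 2693, lay 19202 bp from a mark and met a depleted-list site of 2733 reads, a site absent from the other HCT116 lists, and 5 of 14 K562 lists. Among peaks in the depleted and not the wild-type rescue list, it was followed by chr17:18584595-18585397 (score 908, 85 depleted-list reads) and chr19:35411174-35413790 (score 800, 119 reads).

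Among peaks in the wild-type rescue and not the depleted list, chr5:10885658-10886126 came first, with a score of 1696 and 1014 reads at the wild-type rescue site. It lies in the part of chromosome 5 where both rescue lists were dense. It was followed by chr5:73500676-73501197 (score 839, 215 reads) and chr3:111832916-111834890 (score 703, 256 reads). In all 4 lists the highest was chr7:26681913-26683421, with a score of 757 and 101, 94, 74 and 97 reads at the depleted, T530A, aphidicolin and wild-type rescue sites. The next was chr6:29460558-29461284 (score 483), with 53, 76, 131 and 206 reads in that order of lists. It was followed by chr4:188225363-188226622 (score 359), with 303, 212, 114 and 64 reads. These are raw counts of whole sites, scaled neither for depth nor for site width, so no direction across lists is read from them. In none of the 4 lists, the first peak was followed by chr5:103540668-103541628 (score 1766), which met no K562 list either, and chr9:69710677-69711460 (score 1650).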

How the data were processed

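The files are 21 peak lists of 23 samples, in hg19 coordinates. The submitters' processing notes name that build, MACS and SICER, with no settings. The 2 sheared genomic DNA controls were used for peak calling, per the labels, and were not analysed here. No label or header names an aligner or a threshold. In 18 lists the authors deposited a whole number for each region, read here from the values as an unscaled read count. For pSIRT1 in K562 cells, the G2 and the middle S file carry a score with decimals, as deposited by the authors. The H4K16ac list deposited by the authors has the MACS layout, with a score, a fold enrichment (ratio) and −log10 p and q values per peak.

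No peaks within a list overlapped on chromosomes 1 to 22 and X. A peak met a list when at least 1 bp was shared. Bound peaks were weighted to the unbound peaks' shares of 8 width classes with edges at 200, 300, 400, 600, 800, 1200, 2000 and 4000 bp. Overlap functions were checked on simulated intervals. With 1 library per group no test was run. Regions were named by rank: the 3 highest scores in each of 5 classes, chromosome 8 left out. The subset, comparisons and alternatives were chosen with earlier results of these data known. The gene and marker lists planned were not applied, since no hg19 annotation was used. Python 3.11.15, numpy 2.4.6, pandas 2.3.3, scipy 1.17.1 and matplotlib 3.10.9 were used.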

Additional observations from a re-analysis of the deposited data

How the results depend on the processing

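All values below are in percent, or in percentage points where a difference is named. No paired analysis was possible because each group had 1 library and no test was run, and no replicate could be left out. Settings that omit chromosome X with chromosomes 5 and 21, the weighting on width and score together, and the settings for peaks scoring 100 and over were chosen after seeing the data.

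The number of unbound peaks was 30416 in the higher-scoring 50% of H4K16ac peaks and 42957 when none within 5 kb of a mark was kept. The unbound shares in the depleted and the wild-type rescue list were 18.9 and 18.5 with overlap of 50% of the shorter peak, 24.3 and 22.8 within 1 kb, 18.6 and 18.4 by the peak's middle, 26.1 and 21.8 in the higher-scoring 50%, 10.4 and 12.3 against the higher-count 50% of start sites, 18.6 and 18.1 with no mark within 1 kb, 15.8 and 14.3 with none within 5 kb, and 19.9 and 18.5 without chromosomes 5 and 21. The depleted share was 14.2 at equal list lengths, and the wild-type rescue share 18.85 without chromosomes 5, 21 and X.

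The unbound depleted minus wild-type rescue difference was 1.48 within 1 kb, 0.18 by the middle, 4.26 in the higher-scoring 50%, 1.47 with no mark within 5 kb, 1.39 without chromosomes 5 and 21 and 1.201 without 5, 21 and X. It turned to -1.83 with the higher-count 50% of sites and to -5.41 at equal lengths. The difference for bound peaks at equal widths was 12.4 by the middle, 16.6 in the higher-scoring 50%, 4.93 with the higher-count sites, 0.027 at equal lengths, 13.98 without chromosomes 5 and 21, 13.8 without 5, 21 and X, 15.6 unweighted and 9.93 with width and score weighting. The unbound T530A minus wild-type rescue difference turned to -0.18 by the middle, -0.92 with the higher-count sites and -4.18 at equal lengths, and the aphidicolin one to -2.60 at equal lengths. The cause of these shifts was not tested. Unknown depth and 1 library per group limit every difference, and a small difference that changes sign with list length has no settled direction here.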
